A study of Saccharomyces cerevisiae with 6 samples.

Results

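The stretches of the wild-type genome that lagged furthest behind in S phase were described here from whole-genome sequencing of budding yeast. The deposited wild-type profile at 40 min listed a relative copy number for 11567 adjoining windows of 1 kb. The 1156 late windows were chosen by their smoothed value in that profile, as its lowest 10%, and neighbours were joined into 77 domains, so the wild-type values at 40 min are a description. The study used strains of the W303 background, derived per the methods from W1588-4C, which differs from W303 at *RAD5*, with the chromosomal *POL2* gene tagged with 3HA::KAN: the *pol2-REL* strain (genotype pol2-REL-3HA::KAN), whose Pol2 carries substitutions modelled on changes seen in cancers and located in POPS, a domain at the periphery of the Pol ε catalytic core, and the wild type (Pol2-3HA::KAN). Each strain was grown at 24 °C, arrested in G1 with alpha factor and released into S phase with pronase, and DNA was collected in G1 and 30 and 40 min after release. The 6 libraries, from 1 strain of each genotype, have no replicates, and differences between genotypes or times are therefore given without p-values. The libraries held between 19156804 and 40161464 binned reads, and intervals on ratios of reads cover counting error only.

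Yeast chromosomes are copied from many origins that fire at characteristic times, and the forks that leave neighbouring origins meet somewhere between them. A locus that has been copied gives more reads relative to G1 than one that has not, so origins appear as peaks of copy number, and the places where forks meet, or where a fork has furthest to travel, appear as valleys. Subtelomeric DNA is known to replicate late in this yeast. There the telomere-bound protein Rif1 recruits the phosphatase Glc7, which counteracts the kinase needed to activate origins. Pol ε is both the leading strand polymerase and a part of the machinery that assembles the replicative helicase at origins.

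The 77 domains were 2 to 48 kb long, with a median of 15 kb and the middle 50% between 7 and 21 kb. The 20 domains over 20 kb held 47.7% of the late windows, and 8 domains were under 5 kb. All 16 chromosomes had at least 1 domain. Chromosomes VI and XII had the most late windows for their length, 14.8% and 14.7% of their listed windows, and chromosome XIV the fewest, 2.94%. Because the deposited values average 1 within every chromosome, a window counts as late relative to the rest of its own chromosome. At the threshold, the last window inside lay on chromosome VIII from 490001 to 491000 (SacCer2) with a smoothed value of 0.7911, and the first outside on chromosome XV from 206001 to 207000 with 0.7913. The ratio of counts of a single late window had a median counting error of 3.14% in *pol2-REL* and 2.94% in wild type at 40 min, larger than the step between these values.

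In *pol2-REL* at 40 min the late windows had a median smoothed value of 0.900 (lowest 0.747, highest 1.13), against 0.987 in the rest of the genome. In wild type at 40 min, where they were chosen, the median was 0.764 (lowest 0.652, highest 0.791), against 0.996 in the rest. At 30 min the same windows stood at a median of 0.991 in *pol2-REL* (0.827 to 1.113), with 0.994 in the rest, and at 0.959 in wild type (0.813 to 1.05), with 1.01 in the rest. Outside the profile that chose them, the late windows overlapped the rest in range. In these ratios at 30 min the late windows of *pol2-REL* were close to the rest, and those of wild type were below it. The wild-type profiles at both times share the wild-type G1 library, and the *pol2-REL* profiles share neither library with the choice of windows. The wild-type value at 30 min is therefore not independent of the choice, and is a description. In wild-type G1 the late windows had a median of 2744.5 reads, against 2464 in the rest. In the 30 min counts the late windows were above the rest in both genotypes. Their median was 3483.5 reads against 3389 in wild type, and 2574.5 against 2482 in *pol2-REL*. The difference between genotypes at 30 min was not tested.

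**Figure D1:**
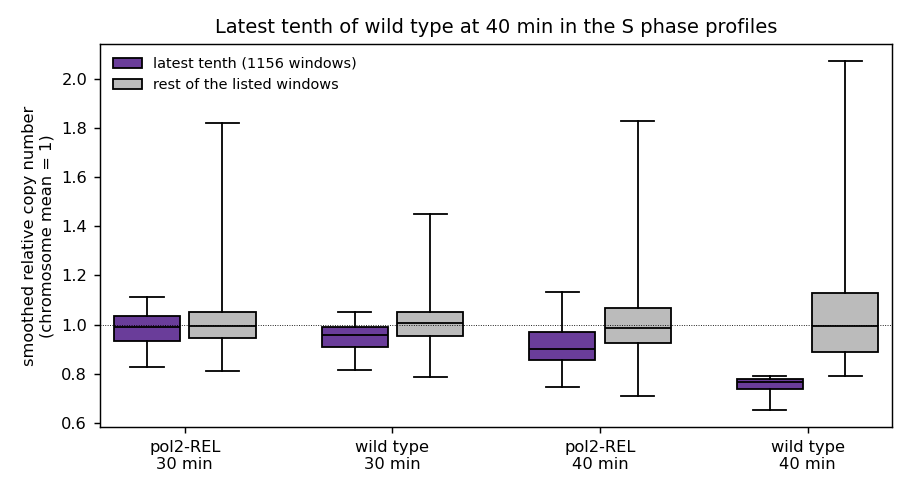
Smoothed relative copy number (chromosome mean of 1) of the late windows and of the rest of the listed windows in the 4 S phase profiles. Boxes span the middle 50%, lines inside them mark the median and whiskers the lowest and highest window; the median of the late windows was 0.900 in *pol2-REL* and 0.764 in wild type at 40 min, and the wild-type 40 min profile chose the windows.

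Averaged over the 77 domains and aligned on the lowest wild-type window of each, the *pol2-REL* profile at 40 min had its own minimum at the same position, offset 0 kb, with a mean of 0.905. The means at neighbouring offsets were close to it. The wild-type profile reached 0.748 there, and was lowest at 0 kb by construction, since it chose the windows and set the alignment. At 30 min *pol2-REL* was nearly flat across the domain, with a lowest mean of 0.978 at 13 kb from the aligned position, and wild type had a shallow minimum of 0.946 at 0 kb. The wild-type 30 min profile shares its G1 library with the profile that set the alignment, so the place of this minimum is a description. Within 60 kb the highest mean at 40 min was 1.07 in *pol2-REL* and 1.02 in wild type.

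**Figure D2:**
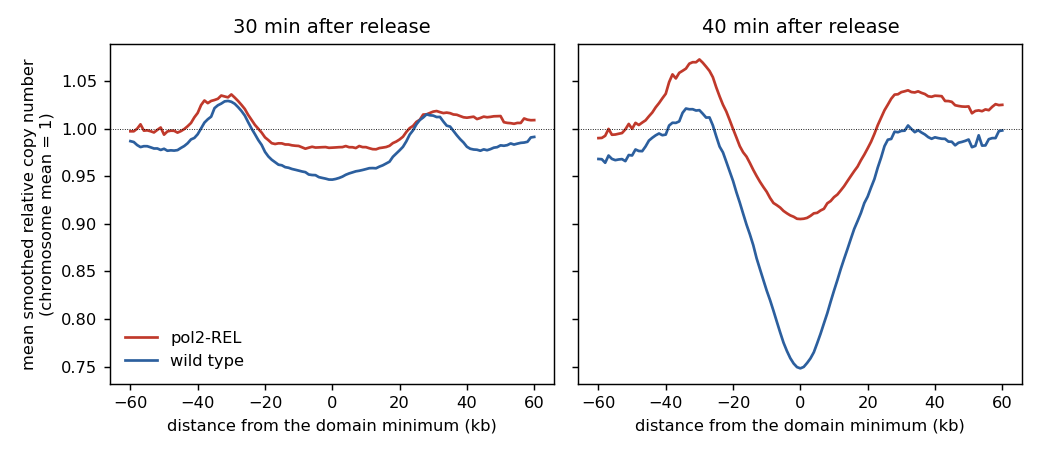
Mean smoothed relative copy number (chromosome mean of 1) against the distance in kb from the lowest wild-type 40 min window of each domain, at 30 min (left) and 40 min (right). Lines are means over up to 77 domains; at 40 min both genotypes are lowest at 0 kb, with 0.905 in *pol2-REL* and 0.748 in wild type, whose profile set the alignment.

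The longest domains lay on chromosome II from 88001 to 136000 and on chromosome VII from 1009001 to 1057000, with 48 kb each. The chromosome II domain had a mean smoothed value of 0.969 at 30 min and 0.881 at 40 min in *pol2-REL*. In wild type its mean was 0.925 at 30 min and 0.744 at 40 min. Its windows held on average 1667 (G1), 2515 (30 min) and 2470 (40 min) reads in *pol2-REL*, and 2788, 3492 and 1977 reads in wild type. Relative to the median listed window of each library, its depth was 1.02 (G1), 1.01 (30 min) and 0.920 (40 min) in *pol2-REL*, and 1.12, 1.03 and 0.807 in wild type, so it was lower at 40 min than in G1 in both genotypes. The chromosome VII domain, which reached to 34.4 kb from the right end, had a mean of 1.03 at 30 min and 0.974 at 40 min in *pol2-REL*. In wild type its mean was 0.965 at 30 min and 0.759 at 40 min. It was late in wild type and near its chromosome's mean in *pol2-REL*, but 6 of its 48 windows stayed in the lowest 10% of wild type when the wild-type counts were divided by *pol2-REL* G1. Next in length came 33 kb on chromosome XV from 930001 to 963000, with 0.888 in *pol2-REL* and 0.727 in wild type at 40 min.

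Of the domains of 29 kb, the one on chromosome IV from 357001 to 386000 was low in both genotypes at 40 min, with a mean of 0.824 in *pol2-REL* and 0.739 in wild type. Another on chromosome IV, from 165001 to 194000, had 0.971 in *pol2-REL* and 0.774 in wild type. On chromosome XII, the domain from 541001 to 570000 had 0.879 in *pol2-REL* and 0.753 in wild type. The late windows of wild type all lie under the threshold by choice, so these wild-type values had little room to differ. The domain of 29 kb on chromosome XIII from 53001 to 82000 contained the lowest window of the whole wild-type profile, from 66001 to 67000 with 0.652, and its mean was 0.837 in *pol2-REL* and 0.704 in wild type. A domain of 28 kb on chromosome XII from 42001 to 70000 had 0.882 in *pol2-REL* and 0.745 in wild type, and 10 of its windows stayed in the lowest 10% of wild type with *pol2-REL* G1. The next lowest single windows were on chromosome X from 578001 to 579000 with 0.662, in a domain from 565001 to 589000 with a mean of 0.821 in *pol2-REL* and 0.702 in wild type, and on chromosome XIII from 852001 to 853000 with 0.677, in a domain from 844001 to 866000 with 0.913 in *pol2-REL* and 0.722 in wild type.

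Most domains were valleys between peaks. In wild type at 40 min 221 peaks were called as maxima at least 10 kb apart with a prominence of at least 0.05, and 62 of the 77 domains had a peak on both sides of their lowest window, while 15 lay between the outermost peak and a chromosome end. The late windows were 6 to 61 kb from the nearest wild-type 40 min peak, with a median of 26 kb, against 12 kb in the rest. This distance comes from the profile that chose the windows. Peaks of the *pol2-REL* profiles, which were not used in the choice, gave a median of 28.5 kb in late windows and 17 kb in the rest at 40 min, and 33 and 20 kb at 30 min. Within 10 kb of a *pol2-REL* 40 min peak lay 2.77% of the late windows and 32.5% of the rest. Inside late windows, which are 10% of the listed windows, fell 1 of the 168 *pol2-REL* peaks at 40 min and 5 of the 152 at 30 min. Of the 182 wild-type peaks at 30 min, 0 fell there, which allows a share of up to 2.01% (exact binomial limit). That profile shares the wild-type G1 library with the one that chose the windows, so its count is a description.

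Gaps, peak heights and late windows all come from the wild-type 40 min profile, and their relation is a description. Gaps between neighbouring peaks that held late windows had a median of 61.5 kb (22 to 106 kb, 60 gaps) against 39 kb (17 to 104 kb, 145 gaps). Late windows lay in 1 of 32 gaps under 30 kb, in 12 of 80 gaps of 30 to 50 kb, in 38 of 73 gaps of 50 to 80 kb and in 9 of 20 longer gaps. Long gaps without late windows were found too. The lower of the 2 flanking peaks had a median height of 0.979 in gaps with late windows and 1.12 in the others. The lowest point lay on the side of the lower peak in 50 of the 60 gaps with late windows and in 113 of the 145 others. An exception was the gap of the chromosome IV domain from 165001 to 194000, where the lowest window was 60 kb from the left peak, of height 0.974, and 29 kb from the right peak, of height 0.989. Within the same gaps, the lowest point of the *pol2-REL* profile at 40 min was within 5 kb of the wild-type one in 34 of the 60 gaps with late windows (56.7%) and in 99 of the 145 others (68.3%). Gaps with late windows were longer, which leaves more room for the lowest points to differ, and gaps of like length were not compared. The distance between both lowest points had a median of 4 kb and reached 39 kb in gaps with late windows, and had a median of 3 kb and reached 47 kb in the others.

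**Figure D3:**
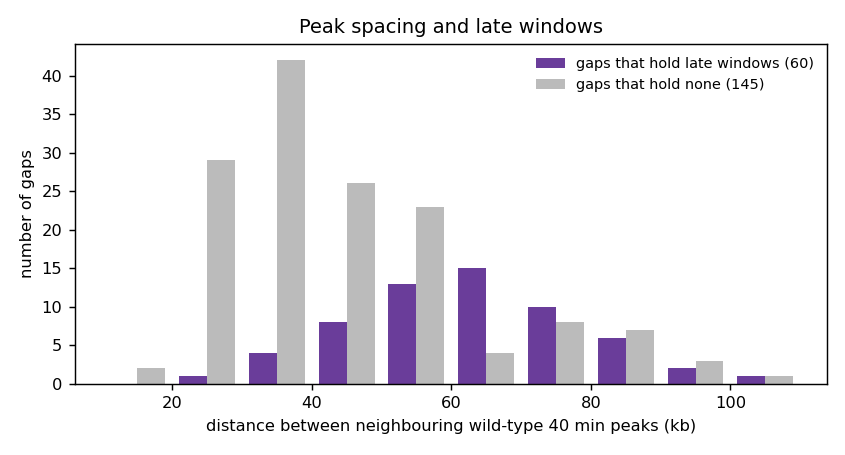
Number of gaps between neighbouring wild-type 40 min peaks by their length in kb, for the 60 gaps that hold late windows and the 145 that hold none. The median length was 61.5 kb and 39 kb, and both kinds occur among the longest gaps.

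The late windows were not most frequent at the very ends of the chromosomes. Within 30 kb of an end lay 4.67% of the late windows, against 6.43% of all listed windows, and 7 domains reached into this zone. Of the 960 windows there, 216 had no wild-type 40 min ratio and could not be ranked. From 30 to 100 kb, 18.0% of the listed windows were late, with the highest share, 19.0%, at 50 to 100 kb, and over 200 kb from an end 5.003% were late. Of the 32 chromosome ends, 25 had a late window within 100 kb. The lowest 10% of the *pol2-REL* profile at 40 min was placed differently, with 3.20% of the windows from 30 to 100 kb and 12.2% of those over 200 kb from an end, and with 6 of the 32 ends having such a window within 100 kb.

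The G1 libraries, by which the S phase counts are divided, differed in the same zones. From 50 to 100 kb from an end the median window had 1.07 times the depth of the library's median window in *pol2-REL* G1 and 1.23 times in wild-type G1, and over 200 kb it had 0.977 times in *pol2-REL* G1 and 0.932 times in wild-type G1. Windows at 30 to 100 kb were 19.0% of all listed windows. They made up 6.43% of the lowest 10% when *pol2-REL* 40 min counts were divided by *pol2-REL* G1 and 31.5% when they were divided by wild-type G1. For wild-type 40 min counts these shares were 14.2% with *pol2-REL* G1 and 33.8% with wild-type G1. The lowest windows were thus over-represented at this distance with wild-type G1 and under-represented with *pol2-REL* G1, in both genotypes. These shares use Gaussian in place of the deposited smoothing, with which 94.1% of the late windows remained in the lowest 10% of wild type with wild-type G1. With *pol2-REL* G1 as the reference and the same smoothing, 62.9% of the late windows remained. Of the 77 domains, 49 kept at least 50% of their windows and 18 kept none, and the median distance from an end was 194 kb and 77.0 kb in these sets. Without scaling by chromosome, 12.2% of the lowest windows lay within 30 kb of an end in place of 4.67%, and with *pol2-REL* G1 2.17%.

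**Figure D4:**
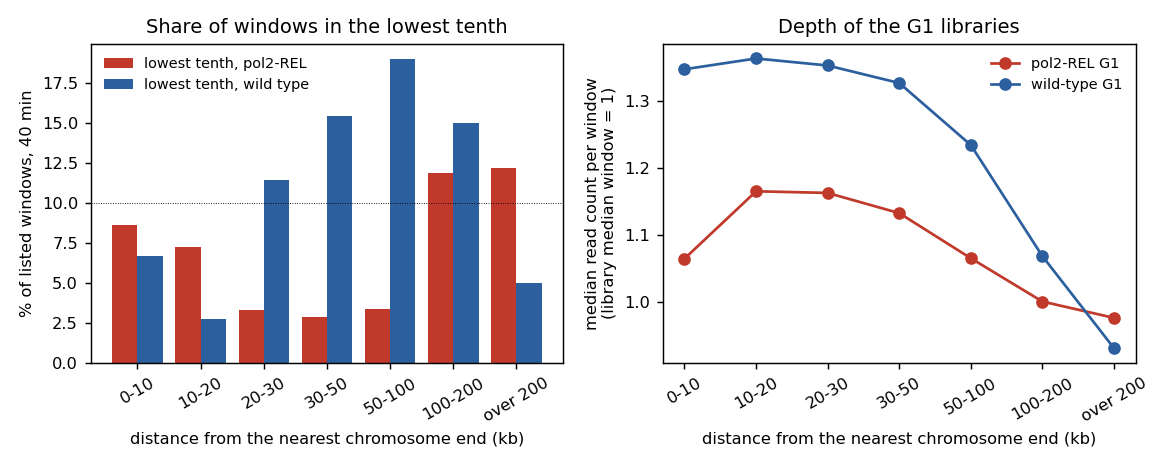
Left, percentage of listed windows that belong to the lowest 10% at 40 min in *pol2-REL* and in wild type, by distance in kb from the nearest chromosome end; the dotted line marks 10%. Right, median read count per window in the G1 libraries relative to the median window of the library; at 50 to 100 kb it was 1.07 in *pol2-REL* and 1.23 in wild type.

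Whether the same stretches were the latest in *pol2-REL* was asked by ranking its own windows. Of the 1156 late windows, 313 (27.1%, exact binomial 95% interval 24.5 to 29.7%) were among the lowest 10% of *pol2-REL* at 40 min, which is 27.2% of the 1151 windows of that list. The background, the share of all *pol2-REL* windows called this way, is 10%. The interval treats windows as independent draws, which neighbouring windows of a smoothed profile are not. Within *pol2-REL* at 40 min the late windows had a median percentile of 20.3 (middle 50% from 8.50 to 47.1), 77.3% of them were in the lower 50% of the genome, and 0 of 1156 were in the highest 10%, which allows a share of up to 0.319% (exact binomial limit). At 30 min their median percentile in *pol2-REL* was 48.0, and 11.3% (9.56 to 13.3%) were in the lowest 10%, against a background of 10%. In wild type at 30 min, a profile divided by the same G1 library as the one that chose the windows, their median percentile was 28.7, given as a description. The shared windows formed 27 stretches, the longest being the whole chromosome IV domain from 357001 to 386000.

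The overlap at 40 min depended on the reference and the scaling. With 1 common reference for both genotypes, so that both profiles share a G1 library, it was 46.4% with *pol2-REL* G1, 42.0% with wild-type G1 and 43.4% with their sum. With a genome-wide in place of a chromosome mean of 1 it was 15.4%. The median G1 depth of a chromosome, relative to the library's median window, ranged from 0.984 on chromosome XII to 1.10 on chromosome VI in *pol2-REL*, and from 0.869 on chromosome XII to 1.76 on chromosome I in wild type, and the part of this difference in the overlap was not tested. When the *pol2-REL* windows were ranked by their 40 min over 30 min counts, with no G1 library on that side, a setting chosen after seeing the data, 31.1% of the late windows were in the lowest 10%. By distance from an end, 15.2% of the late windows at 30 to 100 kb were shared (11.8 to 19.2%), against a background of 3.2% there, and 34.5% of those over 100 kb (31.0 to 38.1%), against 12.1%. Within 30 kb 16.7% were shared (7.92 to 29.3%), against 5.88%. The shared windows lay in 2 of the 7 domains with late windows within 30 kb, in 4 of 29 at 30 to 100 kb and in 23 of 52 over 100 kb, so the values of the outer zones rest on few stretches.

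Domain by domain the overlap was mostly all or nothing. Of the 77 domains, 17 lay wholly in the lowest 10% of *pol2-REL* at 40 min, 10 partly and 50 not at all. Both profiles are smoothed, so neighbouring windows tend to fall on the same side of a threshold. This pattern was not compared with stretches of like length elsewhere. Chromosome IX shared 30 of its 32 late windows, and 25% of all its windows were in the lowest 10% of *pol2-REL*. Chromosome VIII shared 0 of 48, with 1.33% of all its windows in that list, and chromosome I had no window in the list. Of domains with at least 5 windows, the latest in *pol2-REL* was on chromosome XII from 255001 to 281000, with a mean of 0.848 at 30 min and 0.775 at 40 min in *pol2-REL*, and of 0.940 and 0.721 in wild type. All 26 of its windows were also among the lowest 10% of *pol2-REL* at 30 min, and none was among the lowest 10% of wild type at 30 min. Its windows held on average 1592 (G1), 2006 (30 min) and 2147 (40 min) reads in *pol2-REL*, and 2108, 2913 and 1688 reads in wild type. Relative to each library's median listed window, its depth was 0.970, 0.805 and 0.800 in *pol2-REL*, and 0.849, 0.857 and 0.689 in wild type. It was followed by chromosome XVI from 601001 to 609000, with 0.785 in *pol2-REL* and 0.784 in wild type at 40 min, and by a domain near the right end of chromosome VI from 224001 to 246000, with 0.803 in *pol2-REL* and 0.755 in wild type. The G1 depth of the chromosome VI domain was 1.17 times that of the median window in *pol2-REL* and 1.82 times in wild type. Its read share in *pol2-REL* at 40 min was 0.823 times that at 30 min (95% counting interval 0.814 to 0.832), and 0.865 times relative to its chromosome. The mean in *pol2-REL* at 40 min was below 1, the chromosome mean, in 67 of the 77 domains, and the others, on several chromosomes, were above it. The median of the rest of the windows, 0.987, was also below 1, and stretches of like length outside the late windows were not counted. At the other extreme, of domains with at least 5 windows, the 3 ranked highest in *pol2-REL* at 40 min were in the left part of chromosome XVI. These lay from 22001 to 35000 with 1.09 in *pol2-REL* and 0.777 in wild type, from 131001 to 141000 with 1.07 in *pol2-REL* and 0.783 in wild type, and from 98001 to 108000 with 1.05 in *pol2-REL* and 0.762 in wild type. With *pol2-REL* G1 as the reference and Gaussian smoothing, 0 of the windows of these 3 domains were in the lowest 10% of wild type, so their call as late depends on these settings. The first of them held 1907 (G1), 3293.5 (30 min) and 3443 (40 min) reads per window in *pol2-REL*, and 3207, 4352 and 2559 reads in wild type. Its depth relative to the median listed window was 1.16, 1.32 and 1.28 in *pol2-REL*, and 1.29, 1.28 and 1.04 in wild type.

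In the other direction, the lowest 10% of *pol2-REL* at 40 min formed 69 stretches with a median of 12 kb and a longest of 65 kb, and 42 of them held no late window of wild type. The longest of these was 40 kb on chromosome XIII from 312001 to 352000. Its mean at 40 min was 0.814 in *pol2-REL* and 0.821 in wild type. In wild type it stood at a mean percentile of 16.4, so it lay above the threshold there by a small margin. The 42 stretches differed in this. Their mean percentiles in wild type ran from 14.3 on chromosome VIII (82001 to 85000) to 60.2 on chromosome III (138001 to 149000). The count of 42 was not compared with stretches of like length elsewhere.

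A measure that uses neither a G1 library nor the wild-type libraries is the change in read share between 30 and 40 min in *pol2-REL*. Of the *pol2-REL* reads, 10.2% fell in late windows in G1, 9.98% after 30 min and 9.23% after 40 min. Of the wild-type reads, 10.5% did so in G1, 10.04% after 30 min and 8.04% after 40 min. In *pol2-REL* the share at 40 min was 0.925 times that at 30 min (95% counting interval 0.924 to 0.927), while the rest of the listed windows had a median of 0.988 per window. In wild type, where 40 min chose the windows, the ratio was 0.801. In *pol2-REL* 1026 late windows (88.8%) had a ratio below 1, against a background of 57.7% of all listed windows. Of the late windows, 761 (65.8%) were lower at 40 min than at 30 min in *pol2-REL* by more than the counting error, against a background of 33.8%, and 29 (2.51%) were higher by that margin, against 25.3%. The share in *pol2-REL* was lower at 40 min in 66 of the 77 domains by more than the counting error and higher in 4. Domains pool several windows, so the backgrounds of single windows do not apply to these counts. Stretches of like length outside the late windows were not counted. Measured within each chromosome, the late windows lost read share in *pol2-REL* on all 16 chromosomes by more than the counting error, with ratios from 0.885 on chromosome IX to 0.978 on chromosome XIV. The late windows that left the lowest 10% of wild type when divided by *pol2-REL* G1 had a ratio of 0.936 (0.934 to 0.938) and those that stayed 0.918 (0.917 to 0.920), so both sets lost read share in *pol2-REL*.

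**Figure D5:**
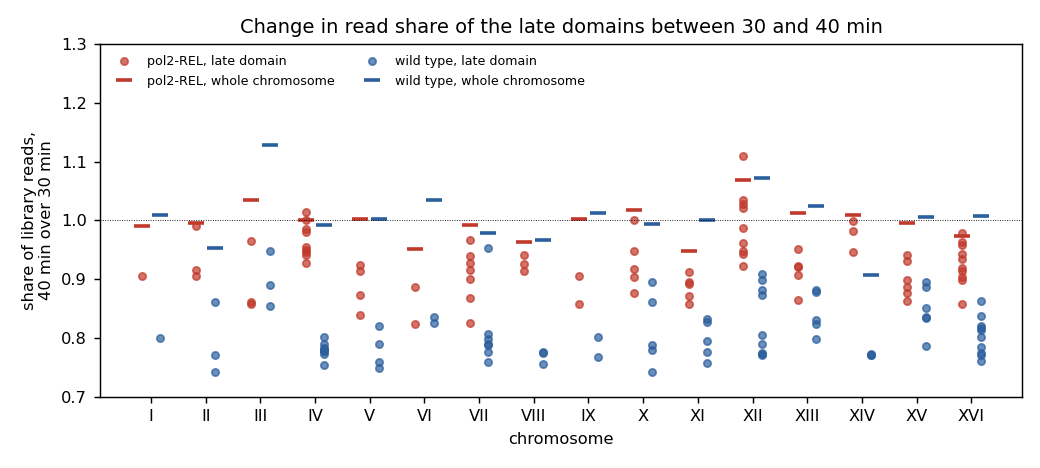
Share of library reads at 40 min over that at 30 min in each of the 77 late domains (points) and in all listed windows of the chromosome (bars), in *pol2-REL* and in wild type, by chromosome; the axis starts at 0.7. Most *pol2-REL* points lie below 1, with a median of 0.923, and the 4 domains above 1 beyond counting error are on chromosome XII, where the whole chromosome stood at 1.07 in *pol2-REL*.

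The 1156 windows with the highest wild-type value at 40 min were set beside the late ones. The late windows formed 77 stretches with a median of 15 kb, and the highest ones 87 with a median of 8 kb. Of the late windows 27.1% (24.5 to 29.7%) were in the lowest 10% of *pol2-REL* at 40 min, and of the highest windows 51.6% (48.7 to 54.6%) were in its highest 10%. The intervals treat neighbouring windows as independent, so the difference was not tested, and the highest windows were not ranked with a common G1 library. From 30 to 100 kb from an end lay 34.1% of the late windows, 1.99% of the highest ones and 19.0% of all listed windows, and with *pol2-REL* G1 14.2% of the lowest windows of wild type lay there. In *pol2-REL* the read share at 40 min over that at 30 min was 0.925 for the late windows and 1.13 (1.12 to 1.13) for the highest ones.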

How the data were processed

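The authors trimmed reads with cutadapt, mapped them with BWA 0.7.8 to the S288c reference (sacCer2), used Picard 1.110 and, after excluding repeats, deposited read counts per 1 kb window every 500 bp, as the submitters' processing notes and the methods state. For each S phase library the authors also deposited a ratio to the G1 counts of the same genotype, its scaled form, and a smoothed ratio (LOESS; its span was not found in the paper or labels). Per the methods, ratios were scaled over the genome and adjusted for DNA content, whereas the scaled values in the files average 1 on each chromosome, so they do not show the level of the whole genome. Ratios were listed only for windows with at least 602 reads in wild type and 605 in *pol2-REL*.

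Alternate windows, which adjoin without overlap, were used (12070, of which 503 had no wild-type 40 min ratio). The lowest 10% were taken and adjacent windows joined. Peaks were called with SciPy 1.17.1 on the smoothed ratio. Alternatives without the deposited smoothing used a Gaussian kernel of 2 kb SD. Shares have exact binomial 95% intervals, and ratios of read shares have intervals of 1.96 standard errors on the log scale. Their counting error was taken as binomial for sets of windows and as Poisson for single windows. Domain and peak calling were run on simulated counts with evenly spaced, equal peaks and Gaussian smoothing. Those settings differ from the deposited profiles, so the run does not measure errors of the calls made here. The domains named are the 8 longest, the 3 with the lowest window, the 3 latest and 3 earliest in *pol2-REL* among those with at least 5 windows, and the longest *pol2-REL* stretch without late windows; domains that moved up in *pol2-REL* were named after their values were seen. Regions and lists were chosen with earlier results of these data known. Genes and sequences of the domains were not analysed here, since the annotation used is of another build. The scripts ran under Python 3.11.15 with pandas 2.3.3, numpy 2.4.6 and matplotlib 3.10.9.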

Additional observations from a re-analysis of the deposited data

Results flagged for a closer look

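Between 30 and 40 min, 4 late domains gained read share in *pol2-REL* and lost it in wild type, both by more than the counting error. They were picked out because the genotypes moved in opposite directions, and without replicate libraries this difference was not tested. All 4 are on chromosome XII. From 317001 to 329000 the ratio of read shares, 40 over 30 min, was 1.1097 in *pol2-REL* (95% counting interval 1.09 to 1.13) and 0.805 in wild type, from 541001 to 570000 it was 1.03 (1.02 to 1.05) and 0.772, from 836001 to 851000 it was 1.03 (1.01 to 1.04) and 0.771, and from 897001 to 912000 it was 1.02 (1.01 to 1.03) and 0.775. All listed windows of chromosome XII together moved by a factor of 1.07 in *pol2-REL* and of 1.07 in wild type. Relative to their chromosome, 3 of the 4 lost read share in *pol2-REL*, and the first still gained, by a factor of 1.04. Among all 77 domains, 74 lost read share relative to their chromosome in *pol2-REL*, and the other exceptions were on chromosome IV from 1261001 to 1266000 and on chromosome XVI from 131001 to 141000. No such count was made for stretches outside the late windows.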

How the results depend on the processing

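No paired analysis was possible because there is 1 library per condition. The number of domains, 77, became 369 without smoothing, 43 with the lowest 5% and 119 with the lowest 20% of windows, and stayed within 1.5 times of 77 in the other alternatives. The overlap with *pol2-REL*, 27.1%, became 15.4% with genome-wide scaling, 46.4%, 42.0% and 43.4% with *pol2-REL* G1, wild-type G1 and their sum as the common reference, 21.5% and 41.9% with the lowest 5% and 20%, and, by settings added once the data had been seen, 31.1% with *pol2-REL* ranked by 40 over 30 min counts and 31.3% over 100 kb from an end. The share of late windows near an end, 4.67%, became 12.2% with genome-wide scaling, 2.17% with *pol2-REL* G1, 2.43% with the summed G1, 1.64% at 20 kb and 13.1% at 50 kb. The median distance to a peak, 26 kb, became 6 kb without smoothing, 24 kb with the lowest 20%, 23 and 29 kb at a prominence of 0.02 and 0.10, 29 and 28.5 kb with wild-type 30 min and *pol2-REL* 40 min peaks, and, likewise added later, 24 kb for windows over 100 kb from an end. The ratio of read shares in *pol2-REL*, 0.925, became 0.928 without smoothing, 0.917 with genome-wide scaling, 0.919 and 0.933 with the lowest 5% and 20%, 0.938 over 100 kb from an end and 0.917 without chromosome XII, both also chosen after seeing the data, and was below 1 in every alternative run. Genome-wide scaling kept 50.5% of the late windows. The causes were not tested, apart from the change of rule that each setting makes. One window's ratio has a counting error of about 3%, so single windows near the threshold are not resolved.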
